A study of Mus musculus with 20 samples.

Results

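Metallothioneins are small cysteine-rich proteins that bind zinc and copper and buffer them inside the cell. The genes of this system followed here were the metallothionein genes Mt1, Mt2 and Mt3, Mtf1, which encodes the zinc-sensing transcription factor MTF1, and Slc30a1, which encodes the zinc exporter ZnT1 of the plasma membrane. They were taken by symbol and are 5 of the 33495 genes of the deposited table. They were selected on measured values of these data, chiefly the mutant and control levels of Mt1 and Mt2 in Mesp1Cre hearts. The comparisons of mutant with control for these 5 genes are therefore a description, and no p-value is given for them. Where members past a threshold are counted, nothing is read from the counts. As background, MTF1 binds short sequences called metal response elements when zinc is plentiful and turns on Mt1, Mt2 and Slc30a1. Mt1 and Mt2 are expressed in many tissues and also respond to glucocorticoids and to stress, while Mt3 is known mainly from the brain. Zinc reaches the cytosol through transporters of the Slc39a family and leaves it through those of the Slc30a family.

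The study deleted a floxed Kmt2d allele, which encodes a histone methyltransferase and is listed in the table as Mll2, in the embryonic mouse heart with 3 Cre drivers. Mesp1Cre acts in early cardiac mesoderm, and whole hearts were taken at E9.0 (4 mutants and 4 controls). Mef2cAHF::Cre acts in precursors of the anterior heart field, and the right ventricle with the outflow tract was taken at E11.5 (3 and 3). Tnnt2::Cre acts in cardiomyocytes, and whole hearts were taken at E11.5 (3 and 3). All embryos were C57BL/6 and carried the Cre and the mTmG reporter. Mutants were Kmt2d fl/fl, and the controls, which the labels call WT, were Kmt2d fl/+ by the breeding scheme in the labels, so each comparison set loss of both alleles against loss of 1 in the cells that the Cre reached. Cells outside the Cre lineage stayed in the tissue that was sequenced.

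RNA sequencing gave between 21727258 and 45341870 counted reads per library (median 27845621.5). Levels are given as counts per 1e6 reads (CPM) on a scale common to the 20 libraries, and values are mean ± SD with n = 4 per group in Mesp1Cre and n = 3 in the other lines. Mll2, counted over the whole gene and so including reads outside the deleted exons, was at 126 to 140.2 CPM in Mesp1Cre mutants and 149.8 to 163 in controls, and at 113 to 122 in Tnnt2::Cre mutants and 126 to 166 in controls. In Mef2cAHF::Cre the libraries labelled mutant had 183 to 189.6 CPM and those labelled control 142 to 153. There the sample titles and genotype labels contradict the condition names in the header of the table, which call the mutants controls. The titles are followed below as "labelled mutant" and "labelled control", and the condition names reverse the sign of every change in that line. The 7 cardiomyocyte markers summed to between 12571 and 27798 CPM in all 20 libraries. A test was passed at an adjusted p under 0.05, over all genes tested in that comparison.

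The 4 metallothionein genes lie side by side on the plus strand of chromosome 8 (mm9), over 43122 bases. In this order the table places Mt4 at chr8:96661104-96662931, Mt3 (ENSMUSG00000031760) at chr8:96676644-96678031, Mt2 (ENSMUSG00000031762) at chr8:96696684-96697462 and Mt1 (ENSMUSG00000031765) at chr8:96703141-96704225. Mt2 and Mt1 are the closest pair, with 5678 bases between them. Mtf1 (ENSMUSG00000028890) lies at chr4:124479348-124526623 and Slc30a1 (ENSMUSG00000037434) at chr1:193730646-193737126, both on the plus strand. Exons of Mtf1 overlap 1110065P20Rik and exons of Slc30a1 overlap 1700034H15Rik on the other strand. Since the strand setting of the counting is not given in the sources used here, reads of these partners cannot be told apart (83 to 361 reads for 1110065P20Rik beside 497 to 1188 for Mtf1, and 18 to 109 for 1700034H15Rik beside 463 to 2585 for Slc30a1). Mt1, Mt2 and Mt3 had no such overlap. A search of each of their exons against mm9 found no copy with 95% identity over 100 bases elsewhere, and exons shorter than 100 bases could not give one.

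The 250 bases before each gene's start in the table were searched on both strands for the core of the metal response element, written as TGCACNC or TGCGCNC. Mt1 and Mt2 each held 5 cores, a number reached by 31 of 33200 windows (0.0934%). Slc30a1 held 1, as did 20.8% of all windows counting those with 1 or more, Mt3 held 3, Mt4 held 1 and Mtf1 held 0. The sites of Mt1, Mt2 and Slc30a1 are shown because they are the letters that MTF1 is known to recognise. They are given 5′ to 3′ along the strand that reads as the core, with the core in capitals, 4 bases on each side, and the distance from the gene start to the site.
Mt1, 175 bases before the start, plus strand, chr8:96702962-96702976: gctgTGCACACtggc
Mt1, 150 bases before the start, plus strand, chr8:96702987-96703001: gctcTGCACTCcgcc
Mt1, 132 bases before the start, plus strand, chr8:96703005-96703019: aaagTGCGCTCggct
Mt1, 68 bases before the start, minus strand, chr8:96703069-96703083: ggttTGCACCCagca
Mt1, 54 bases before the start, plus strand, chr8:96703083-96703097: ccttTGCGCCCggac
Mt2, 216 bases before the start, minus strand, chr8:96696464-96696478: agccTGCACACgccc
Mt2, 162 bases before the start, minus strand, chr8:96696518-96696532: ggccTGCGCACgacc
Mt2, 108 bases before the start, minus strand, chr8:96696572-96696586: cgccTGCACACgccc
Mt2, 89 bases before the start, minus strand, chr8:96696591-96696605: accaTGCACGCgccc
Mt2, 55 bases before the start, plus strand, chr8:96696625-96696639: ctttTGCGCTCgacc
Slc30a1, 29 bases before the start, minus strand, chr1:193730613-193730627: gcttTGCACTCggaa

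The strands differed between Mt1 and Mt2, since 4 of the 5 Mt1 cores but 1 of the 5 Mt2 cores read along the gene. Start sites differ between annotations. RefSeq begins Mt1 152 bases and Mt2 166 bases further upstream, and the windows before the RefSeq starts (sequences from RefSeq, GRCm38.p6, placed on mm9 by matching their letters) held 1 core for Mt1, 3 for Mt2, 1 for Slc30a1 and 0 for Mtf1 and Mt3. Of 32851 RefSeq windows, 21.4% held 1 or more cores and 1.26% held 3 or more. A match is a match of letters in this window, and binding was not measured.

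Mt1 was the member with the largest change. In Mesp1Cre controls it was at 5.99, 5.94, 3.28 and 5.40 CPM in replicates 1 to 4 (163, 144, 83 and 133 reads). In the mutants it was at 52.9, 37.6, 35.6 and 35.6 CPM (1254, 995, 834 and 917 reads). The lowest mutant stood far above the highest control, and mutant replicate 1 stood above the other mutants. The means were 40.4 ± 8.37 and 5.15 ± 1.28 CPM, a log2 fold change of 2.99 (SE 0.20) or 7.93-fold, the 47th highest of 15883 genes tested.

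Mt2, the neighbour of Mt1 in the genome, was high in the same libraries but more scattered. It was at 10.04, 4.41, 6.01 and 5.77 CPM in Mesp1Cre controls and at 29.3, 40.0, 13.3 and 38.3 CPM in the mutants. All mutants lay above all controls, but mutant replicate 3, at 313 reads, came close to control replicate 1, at 273. The means were 30.2 ± 12.2 and 6.56 ± 2.42 CPM, a log2 fold change of 2.22 (SE 0.32) or 4.67-fold, the 106th highest. Groups without overlap in this direction were found for 8.39% of all genes tested. Together the 2 genes made up between 0.000919% and 0.00151% of counted reads in controls and between 0.00528% and 0.00894% in mutants.

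**Figure D1:**
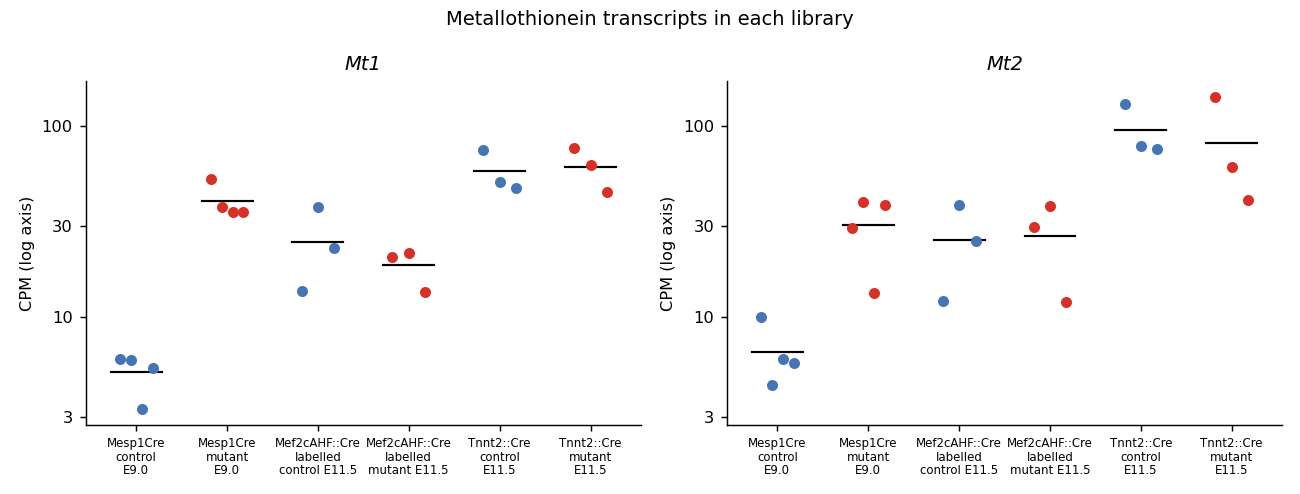
Mt1 and Mt2 in counts per 1e6 reads (log axis) in each of the 20 libraries, by Cre line and label, with a line at each group mean. The 4 Mesp1Cre mutants sit between 35.6 and 52.9 for Mt1 and between 13.3 and 40.0 for Mt2, above all 4 controls, while the groups of the other lines overlap.

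Neither gene showed such a step in the other lines. In Mef2cAHF::Cre, Mt1 was at 20.6, 21.6 and 13.5 CPM in libraries labelled mutant and at 13.7, 37.7 and 23.0 CPM in those labelled control. The ranges overlapped, and the log2 fold change of -0.42 (SE 0.32, 0.42 by the condition names) rested on labelled control replicate 2, without which it was 0.02. Mt2 was at 29.5, 38.3 and 12.0 CPM in libraries labelled mutant and at 12.2, 38.5 and 25.1 CPM in those labelled control, a log2 fold change of 0.07 (SE 0.45). For both genes the libraries labelled control alone spanned nearly the whole range of the line.

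In Tnnt2::Cre hearts Mt1 was at 76.4, 62.2 and 44.9 CPM in mutants and at 75.1, 50.6 and 47.3 CPM in controls. The log2 fold change was 0.08 (SE 0.22), and the groups overlapped. Mt2 was at 142, 61.0 and 40.7 CPM in mutants and at 130, 78.7 and 75.5 CPM in controls, a log2 fold change of -0.22 (SE 0.41). Mutant replicate 1 was the highest of the 6 libraries for both genes and stood among the controls in other respects given below. Without it the Mt2 value was -0.89. The differences between lines in the changes of the 5 genes were not tested, because the lines were part of how the genes were chosen.

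Ordered by group mean, Mt1 was highest in Tnnt2::Cre mutants, followed by Tnnt2::Cre controls, Mesp1Cre mutants, Mef2cAHF::Cre labelled controls, Mef2cAHF::Cre labelled mutants and Mesp1Cre controls. Neighbours in this order overlapped in their libraries, except the last pair, where the lowest labelled mutant (13.5 CPM) was above the highest Mesp1Cre control (5.99 CPM). For Mt2 the order was Tnnt2::Cre controls, Tnnt2::Cre mutants, Mesp1Cre mutants, Mef2cAHF::Cre labelled mutants, Mef2cAHF::Cre labelled controls and Mesp1Cre controls. Here the neighbours that did not overlap were the last pair and, by 40.7 against 40.0 CPM, the mutants of Tnnt2::Cre and Mesp1Cre. The E9.0 mutant hearts thus held Mt1 and Mt2 at levels within the range of the E11.5 libraries, and the E9.0 control hearts were below every other library.

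Per length, in fragments scaled by gene length and depth (FPKM), Mt2 was above Mt1 in most libraries. The mean FPKM in Mesp1Cre controls was 8.20 for Mt1 and 16.3 for Mt2, and in the mutants it was 72.9 and 85.2. The ratio of Mt2 to Mt1 was 1.16 to 2.86 in Mesp1Cre controls (median 2.14) and 0.586 to 1.68 in mutants (median 1.26). Mesp1Cre mutant replicates 1 and 3, at 0.864 and 0.586, were the only libraries of the 20 with more Mt1 than Mt2. In the other groups the ratio was 2.43 to 2.69 in Tnnt2::Cre controls, 1.42 to 2.90 in Tnnt2::Cre mutants, 1.38 to 1.70 in Mef2cAHF::Cre labelled controls and 1.38 to 2.76 in labelled mutants.

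Mt3 and Mt4 were at the edge of detection. Mt3 had 0 to 4 reads in each library, summing to 8 in Mesp1Cre mutants and 4 in controls, 6 in Mef2cAHF::Cre labelled mutants and 3 in labelled controls, and 3 in Tnnt2::Cre mutants and 4 in controls. Mt4, which is known from squamous epithelium, had 2 reads in each of 2 libraries and 0 in the other 18. At this depth neither gene could be compared between groups, and neither passed the filter on low counts in any line. Of the other genes within 100 kb of Mt1, Bbs2, a gene of the cilium's BBSome complex, changed by 0.28 in Mesp1Cre mutants (adjusted p = 0.401, edgeR) and Nup93, which encodes a nuclear pore protein, by -0.36 (adjusted p = 0.0842, edgeR).

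Mtf1, the transcription factor of the pathway, went the other way in Mesp1Cre hearts by a small amount. It was at 27.1, 26.1, 26.3 and 26.9 CPM in controls and at 21.0, 21.0, 23.0 and 21.1 CPM in mutants. The groups did not overlap, and the means were 26.6 ± 0.483 and 21.5 ± 1.01 CPM, a log2 fold change of -0.29 (SE 0.10). Groups without overlap in this direction were found for 9.7% of all genes tested in this line. On the FPKM scale the groups did overlap, since mutant replicate 3 (3.15) lay above control replicate 2 (3.13). Over the alternative settings Mtf1 changed by between -0.31 and -0.10 on the log2 scale. In Mef2cAHF::Cre it was at 26.7, 28.7 and 26.6 CPM in libraries labelled mutant and 26.6, 20.8 and 26.8 in those labelled control (0.14, SE 0.11), and in Tnnt2::Cre at 28.7, 22.5 and 27.1 CPM in mutants and 27.9, 26.8 and 25.9 in controls (-0.04, SE 0.12). In both lines the groups overlapped.

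Slc30a1, the exporter that MTF1 is known to turn on together with Mt1 and Mt2, did not follow them in Mesp1Cre hearts. It was at 22.8, 33.8, 27.8 and 24.3 CPM in controls and at 20.8, 28.1, 19.7 and 20.7 CPM in mutants, with overlapping groups and a log2 fold change of -0.27 (SE 0.16). In Mef2cAHF::Cre it was at 27.6, 29.8 and 21.9 CPM in libraries labelled mutant and 29.4, 24.4 and 22.5 in those labelled control (0.05, SE 0.14). In Tnnt2::Cre hearts it was at 51.5, 30.5 and 33.7 CPM in mutants and at 46.2, 74.9 and 48.9 CPM in controls. There 2 of 3 mutants lay below all controls and mutant replicate 1 lay among them, and the log2 fold change of -0.55 (SE 0.23) became -0.81 without that library.

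**Figure D2:**
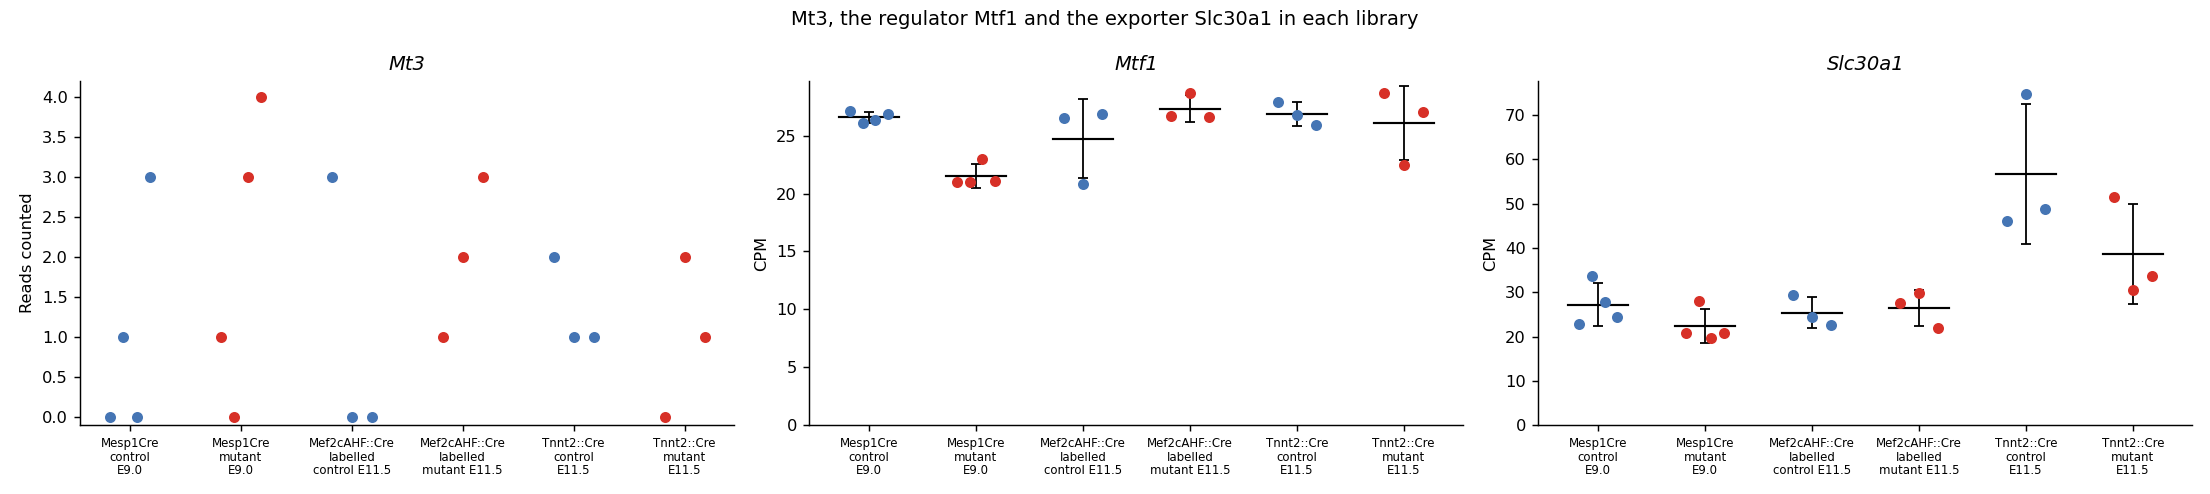
Mt3 in reads per library, and Mtf1 and Slc30a1 in counts per 1e6 reads, in each of the 20 libraries by Cre line and label, with group means and SD for Mtf1 and Slc30a1. Mt3 stays at 4 reads or fewer, Mtf1 is between 20.8 and 28.7 throughout, and Slc30a1 is highest in Tnnt2::Cre controls.

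Of the 4 members that could be tested, Mt1 and Mt2 were higher past the threshold in Mesp1Cre, as were 6.17% of all genes. By edgeR 0 members passed in Mef2cAHF::Cre, where 2.85% of all genes did, and 0 in Tnnt2::Cre, where 0.293% did. Groups without overlap were found for 23.9% and 16.9% of all genes in those lines, and for 0 members. At an unadjusted p under 0.05 the count of members was 0 for the former line and 1 for the latter, and DESeq2 and limma gave 0 in both. These contrasts were used to choose the genes, and nothing is read from the counts. When mutant replicate 1 was left out of Tnnt2::Cre, Slc30a1 was past the threshold, beside 896 genes in all instead of 50. That contrast too was used to choose the genes, and nothing is read from this call.

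**Figure D3:**
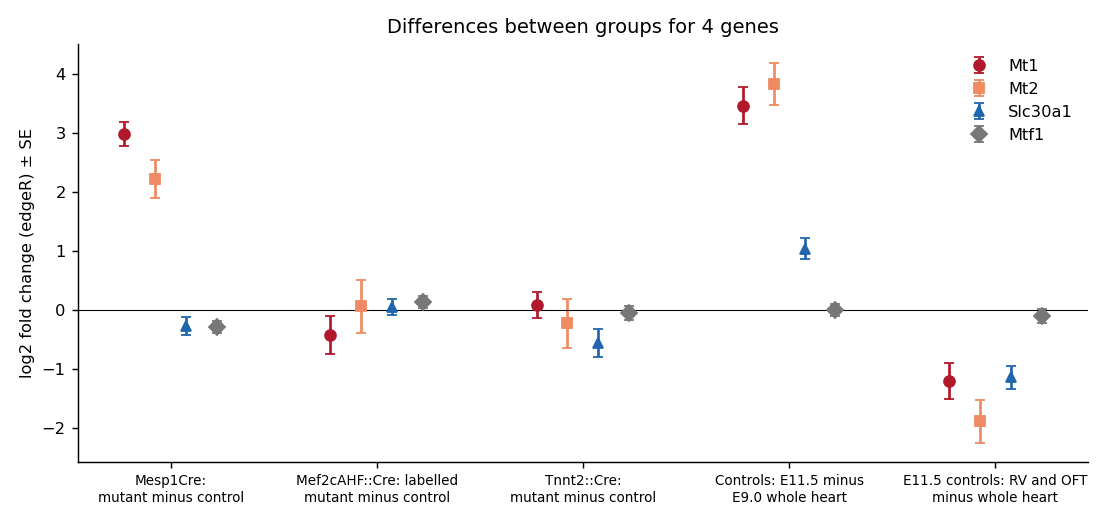
Log2 fold change with its standard error for Mt1, Mt2, Mtf1 and Slc30a1 in each comparison of mutant with control and in the comparisons between controls, with Mef2cAHF::Cre read by the titles. Mt1 and Mt2 stand at 2.99 and 2.22 in Mesp1Cre and at 3.47 and 3.83 between E11.5 and E9.0 control hearts, and Mtf1 stays within 0.3 of 0.

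The control libraries alone showed how the genes differ between the hearts sampled. These comparisons share control libraries with those above and so are not independent of the choice of genes. Stage or region cannot be told apart from the Cre line or from any batch that went with it. Mt1, Mt2 and Slc30a1 were higher in E11.5 (Tnnt2::Cre) than in E9.0 (Mesp1Cre) control whole hearts. The difference was 3.47 on the log2 scale for Mt1 (SE 0.31, 11.1-fold, adjusted p = 4.28e-06, edgeR), 3.83 for Mt2 (SE 0.36, 14.3-fold, adjusted p = 6.38e-06) and 1.05 for Slc30a1 (SE 0.18, 2.07-fold, adjusted p = 5.05e-04). For Mtf1 it was 0.00 (SE 0.11, adjusted p = 0.983). In this comparison 40.5% of all genes were past the threshold, 21.8% in the higher direction.

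The right ventricle with outflow tract (Mef2cAHF::Cre labelled controls) was lower in the same 3 genes than the whole E11.5 heart (Tnnt2::Cre controls). Mt1 was lower by 1.19 on the log2 scale (log2 difference -1.19, SE 0.31, adjusted p = 0.0108, edgeR). Without Tnnt2::Cre control replicate 1 that difference was -0.96, with an adjusted p of 0.0540 by edgeR. Mt2 differed by -1.88 (SE 0.36, adjusted p = 0.0019) and Slc30a1 by -1.13 (SE 0.19, adjusted p = 8.53e-04). By the condition names, which make the other 3 libraries the controls, the values were -1.62 for Mt1 (adjusted p = 2.47e-04, edgeR), -1.81 for Mt2 (adjusted p = 0.00237) and -1.08 for Slc30a1 (adjusted p = 0.00125). For Mtf1 the difference was -0.10 by the titles (SE 0.11, adjusted p = 0.562, edgeR) and 0.04 by the condition names. Of all genes, 30.2% were past the threshold, 16.3% in the lower direction, and 26% in either direction by the condition names.

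Of 23 zinc transporters in the table besides Slc30a1, 20 could be tested in Mesp1Cre and 2 passed (edgeR), 1 lower and 1 higher, beside 5.29% and 6.17% of all genes. Slc39a8, which encodes the importer ZIP8 of zinc and manganese, fell. It was at 91.8, 73.3, 85.9 and 119.6 CPM in controls and at 48.7, 63.4, 41.6 and 48.6 CPM in mutants, with every mutant below every control. The log2 fold change was -0.85 (SE 0.15, adjusted p = 0.00393, edgeR), and it was past the threshold with each library left out in turn, but not when all 6 groups shared 1 fit (adjusted p = 0.0754). Slc30a9, which encodes a transporter of the mitochondrion, rose. It was at 111, 134, 103 and 126 CPM in controls and at 163, 137, 156 and 145 CPM in mutants, again without overlap, a log2 fold change of 0.36 (SE 0.10, adjusted p = 0.0274, edgeR). It stayed past the threshold in 4 of the 8 fits that left out 1 library, with adjusted p-values from 0.0175 to 0.0882. The median over the 20 transporters was -0.02, beside -0.00 over all genes, and 4 had an unadjusted p under 0.05.

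In Mef2cAHF::Cre, where 2.85% of all genes passed, 0 of 19 transporters did (edgeR, 1 at an unadjusted p under 0.05, 0 by DESeq2 and 0 by limma), and in Tnnt2::Cre, where 0.293% of all genes passed, 0 of 20 (edgeR, 1 at an unadjusted p under 0.05, 0 by DESeq2 and 0 by limma). Slc39a8 was at 94.1, 98.0 and 59.5 CPM in Mef2cAHF::Cre libraries labelled mutant and at 64.2, 29.8 and 78.8 in those labelled control. In Tnnt2::Cre it was at 220, 49.2 and 103 CPM in mutants and at 208, 263 and 151 CPM in controls. As for Slc30a1, mutant replicate 1 stood among the controls. Without that library, when all genes past the threshold rose in number from 50 to 896, 3 of the 20 transporters were past it, namely Slc39a8 (-1.44, adjusted p = 0.0252, edgeR), Slc30a10, which encodes a manganese exporter (-2.32, adjusted p = 0.0118), and the zinc importer gene Slc39a14 (0.62, adjusted p = 0.0314).

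**Figure D4:**
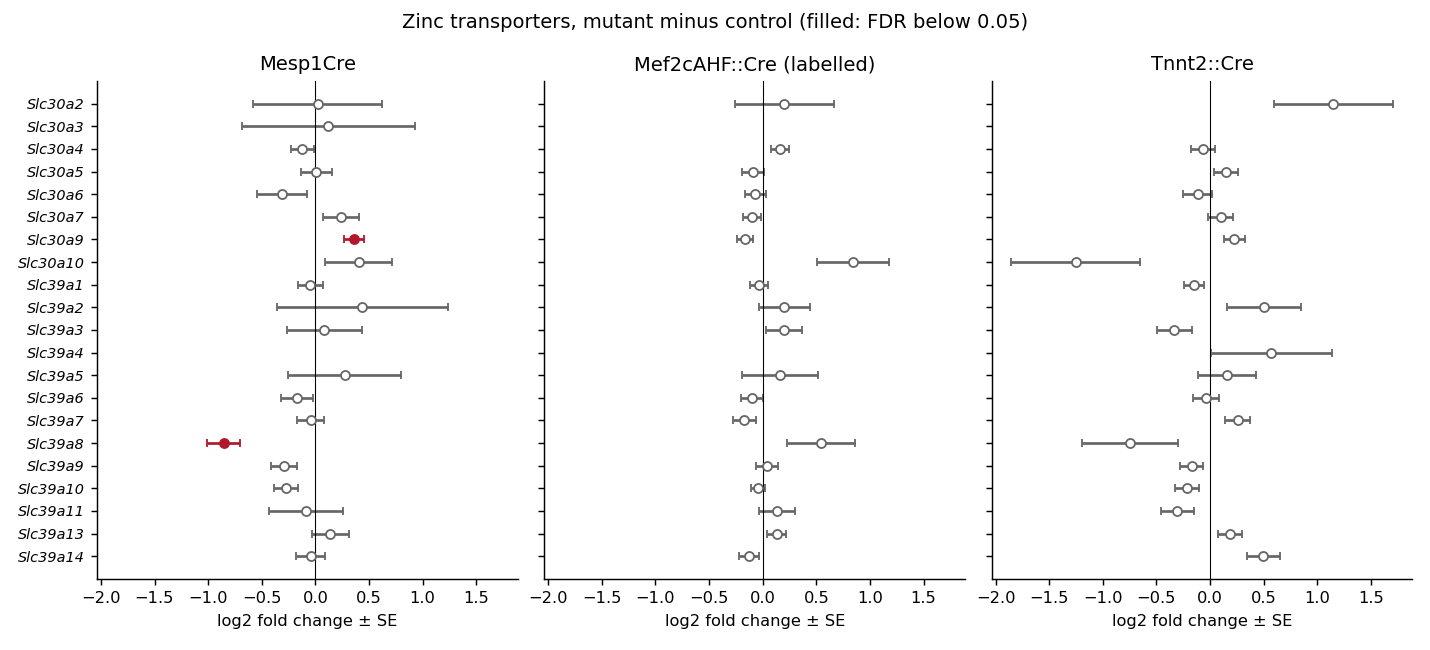
Log2 fold change with its standard error of each zinc transporter gene tested in each Cre line, with exporters of the Slc30a family above importers of the Slc39a family and filled points past the threshold. Slc39a8 at -0.85 and Slc30a9 at 0.36 are the genes past the threshold, both in Mesp1Cre.

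Between control hearts more transporters differed. Of 19 tested, 5 were higher and 4 lower at E11.5 than at E9.0 (edgeR, background 40.5%). By the titles 3 were higher and 4 lower in the right ventricle with outflow tract than in the whole heart (edgeR, background 30.2%). Those named next were picked after their values were seen. Slc30a10 was higher by 2.77 at E11.5 and lower in the right ventricle with outflow tract (-2.33), Slc39a8 differed by 1.15 and -1.83, and Slc39a1, which encodes the importer ZIP1, by 1.00 and -1.02. Slc39a14 lay the other way, at -0.63 and 0.51, as did the importer gene Slc39a10, at -0.43 and 0.28. By the condition names the regional values were -1.49 for Slc30a10, -1.29 for Slc39a8, -1.05 for Slc39a1, 0.38 for Slc39a14 and 0.23 for Slc39a10. Slc30a9 (-0.37) was past the threshold by the condition names only, and Slc30a7 (0.48) by the titles only (edgeR). Both comparisons share the Tnnt2::Cre controls, and nothing is read from the signs.

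Markers of red blood cells moved with several of these results. The 8 erythroid markers, which include embryonic globins and the heme enzyme gene Alas2, summed to 11133, 5337, 12946 and 17628 CPM in Mesp1Cre controls and to 1884, 7322, 3324 and 4286 CPM in the mutants. Of the 8, 5 fell past the threshold and 0 rose (edgeR, beside 5.29% of all genes lower), and 4 fell by DESeq2, 2 by limma and 2 with 1 fit of all 6 groups. Among the mutants, replicate 1, with the most Mt1, had the lowest erythroid sum, and replicate 2, with the next most Mt1 and the most Mt2, had the highest. In Tnnt2::Cre the sums were 129088, 18744 and 42883 CPM in mutants and 122422, 155943 and 101349 CPM in controls, so that mutant replicate 1 again stood with the controls, as it did for Slc30a1, Slc39a8 and Slc30a10. Slc30a10 was there at 107, 13.6 and 35.8 CPM in mutants and at 110, 174 and 86.7 CPM in controls.

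In Mef2cAHF::Cre the erythroid sums were 45470, 45916 and 24331 CPM in libraries labelled mutant and 20337, 7068 and 31461 CPM in those labelled control. Labelled control replicate 2, with the lowest sum, had the most Mt1 of that line (37.7 CPM) and the least Slc39a8 (29.8 CPM). All 8 markers were higher at E11.5 than at E9.0 in controls (median 3.16 on the log2 scale). By the titles all 8 were lower in the right ventricle with outflow tract than in the whole heart (median -2.37). These are the directions of Mt1, Mt2 and Slc30a1. In Mesp1Cre hearts, in contrast, Mt1 and Mt2 were higher and the erythroid sums mostly lower in the mutants, although mutant replicate 2 had a higher sum than control replicate 2. In bulk tissue fewer cells of a type and less RNA per cell cannot be told apart, and the part of red blood cells in these results was not tested.

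**Figure D5:**
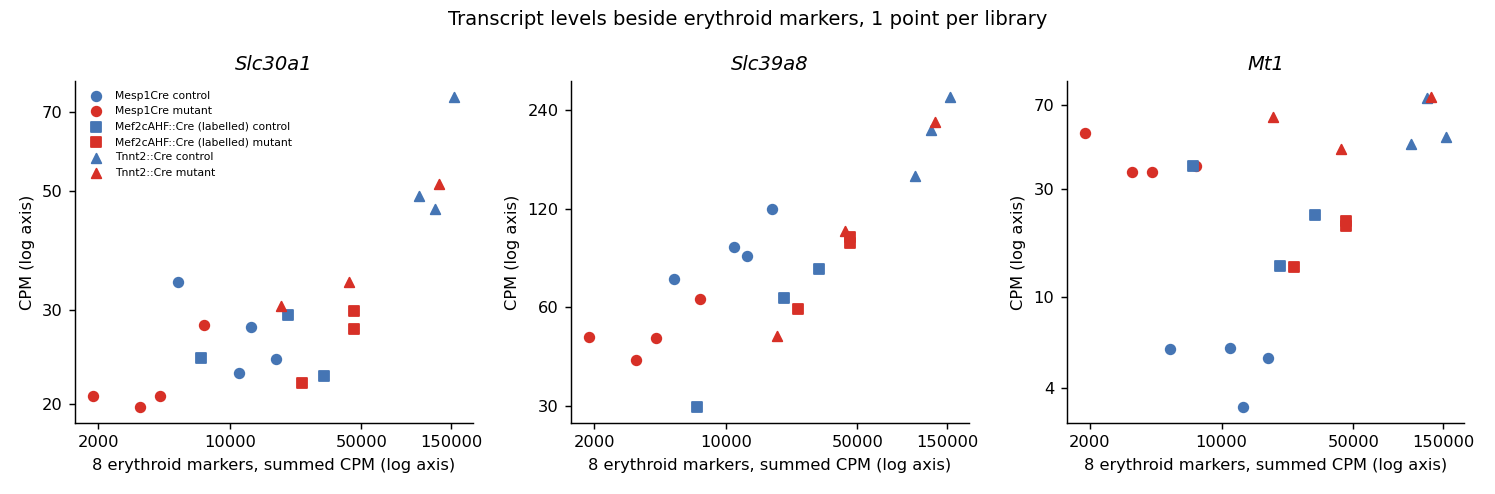
Summed counts per 1e6 reads of the 8 erythroid markers (horizontal, log axis) beside Slc30a1, Slc39a8 and Mt1 in counts per 1e6 reads (vertical, log axis) in the 20 libraries, by Cre line and label. Tnnt2::Cre mutant replicate 1, at 129088, lies with the controls of its line, and the Mesp1Cre mutants combine low erythroid sums with Mt1 of 35.6 to 52.9.

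Markers of liver and yolk-sac endoderm, in which metallothioneins are known to be abundant, were low in Mesp1Cre hearts, but their sum was higher in the mutants. The 12 endoderm markers summed to 6.47 to 8.95 CPM in Mesp1Cre mutants and 4.205 to 5.77 CPM in controls, without overlap, and 0 of the 5 that could be tested passed (edgeR, 1 at an unadjusted p under 0.05, and 0 by DESeq2 and by limma). All 5 had positive values, with a median log2 fold change of 0.66, and with 1 fit of all 6 groups 1 of 7 passed, the endocytic receptor gene Cubn, which was higher. Of the 12 markers, Apob was higher without overlap, at 0.682 to 1.06 CPM in mutants and 0.435 to 0.609 CPM in controls. Such groups were found in this direction for 8.39% of all genes tested in this line. Cubn was at 3.18 to 4.99 and 1.53 to 3.21 CPM, and the ranges of the others overlapped or were 0. Alb, Fga and Fgb were at 0 in all 4 mutants, and Fga and Fgb were also at 0 in all 4 controls. Afp, the fetal albumin-like protein of these tissues, was at most 0.548 CPM in mutants and 0.650 CPM in controls. The 6 macrophage markers summed to 1.69 to 2.87 CPM in mutants and 7.63 to 16.1 CPM in controls. Of the 2 that could be tested, 1 was lower past the threshold (edgeR), and with 1 fit of all 6 groups 3 of 6 were. The widest gap was that of Lyz2, with 13 to 32 reads in mutants and 136 to 350 in controls. Ptprc was also lower without overlap, at 0 to 5 and 6 to 32 reads, beside 9.7% of all genes tested in this line. Csf1r overlapped, at 19 to 40 and 9 to 41 reads, and the ranges of the others overlapped or were 0. The 6 neural markers summed to 9.12 to 11.2 CPM in mutants and 4.47 to 13.2 CPM in controls. The part of these cell types in the Mt1 and Mt2 values was not tested.

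Other genes around the pathway were taken from short lists. Of 6 tested genes that have been reported as MTF1 targets, 1 rose and 1 fell in Mesp1Cre mutants (edgeR, beside 6.17% and 5.29% of all genes). The median log2 fold change over the 6 was -0.25. Only 2 of the 6 had positive values, and 4 had an unadjusted p under 0.05 (edgeR). Ndrg1, a gene induced by hypoxia and stress, was at 1.84, 1.65, 3.28 and 0.528 CPM in controls and at 31.6, 14.5, 19.1 and 9.70 CPM in mutants. Its log2 fold change of 3.37 (SE 0.45, 10.3-fold, adjusted p = 5.79e-04, edgeR) was larger than that of Mt1. Csrp1, which encodes a LIM-domain protein of the cytoskeleton, fell by 0.45 on the log2 scale (SE 0.13, adjusted p = 0.0471, edgeR), with overlapping groups, and was not past the threshold by limma. In Mef2cAHF::Cre Ndrg1 was at 5.82, 5.75 and 5.58 CPM in libraries labelled mutant and at 4.32, 26.3 and 6.01 in those labelled control, where replicate 2 was again the high one. The difference between the changes of Ndrg1 in these lines was 4.45 by the titles (adjusted p = 0.00200, edgeR interaction, past the threshold for 11.3% of all genes) and 2.26 by the condition names (adjusted p = 0.179, 1.63% of all genes). Ndrg1 was taken for this comparison because it had passed in Mesp1Cre, which favours a difference.

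Of 11 copper-handling genes, 1 passed in Mesp1Cre (edgeR), a share near that of all genes, of which 6.17% were higher and 5.29% lower. Atp7b, which encodes the copper-exporting ATPase of Wilson disease, rose from 20.6 ± 4.34 to 44.7 ± 10.8 CPM, a log2 fold change of 1.13 (SE 0.19, adjusted p = 0.00226, edgeR). Of 9 genes that respond to glucocorticoids, 4 rose and 0 fell (edgeR, beside 6.17% and 5.29% of all genes), with a median over the 9 of 0.57. Among the 4 that passed, the 3 largest were the kinase gene Sgk1 (0.87, SE 0.15, adjusted p = 0.00312, edgeR), the mitochondrial kinase gene Pdk4 (0.65, SE 0.17, adjusted p = 0.0260) and the clock gene Per1 (0.57, SE 0.17, adjusted p = 0.0460). Per1 had overlapping groups and was not past the threshold by limma, which called 3 of the 9. In Mef2cAHF::Cre 0 of the 6, 0 of the 11 and 0 of the 9 passed by edgeR (1, 1 and 4 at an unadjusted p under 0.05, with 0, 0 and 1 by DESeq2 and 0 by limma). In Tnnt2::Cre it was 0 of the 6, 0 of the 11 and 0 of the 9 by edgeR (0, 1 and 1 at an unadjusted p under 0.05, and 0 by DESeq2 and limma).

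The members differed in how they varied together over the 20 libraries. After each gene was centred on its mean within each Cre line, the correlation of log2 CPM was 0.85 between Mt1 and Mt2, -0.73 between Mt1 and Mtf1, -0.53 between Mt2 and Mtf1 and -0.29 between Mt1 and Slc30a1. Without centring these values were 0.91, -0.29, -0.04 and 0.38, so that the last changed sign. Between Mt2 and Slc30a1 the correlation was -0.05 with centring and 0.58 without. Centring within a line keeps the difference between mutants and controls on which the genes were chosen. The points share libraries, depth and the composition of the tissue, and 8 of the 20 come from the Mesp1Cre comparison, so these values are a description. Among 12305 other genes of at least moderate level, those most like Mt1 were Bnip3l, a mitophagy receptor gene (0.94), A230083H22Rik (0.94), the histone demethylase gene Kdm3a (0.93), the transcriptional repressor gene Bhlhe41 (0.92) and the actin-binding protein gene Triobp (0.92). Bnip3l was at 366 ± 46.8 CPM in Mesp1Cre mutants and 172 ± 7.39 CPM in controls.

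Genes most like Mt2 correlated less closely. They were Jhdm1d (0.86), a histone demethylase gene, Rb1cc1 (0.85), a gene of autophagy initiation, Edc3 (0.85), a gene of mRNA decapping, 2610015P09Rik (0.84) and Shc1 (0.81), which encodes a signaling adaptor. For Slc30a1 they were the glutathione synthesis gene Gclm (0.86), Maz (0.86), Rnf10 (0.85), Ddrgk1 (0.85) and Dclre1b (0.84), and for Mtf1 they included the proteasome gene Psma4 (0.91) and the transcription factor gene Gtf2a2 (0.90). Without centring, 0 of the 5 stayed among the top 5 for Mt1, 0 of 5 for Mt2 and 2 of 5 for Slc30a1. No likeness is given for Mt3, whose reads were too few to order the libraries.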

How the data were processed

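Hearts or parts of them from 20 mouse embryo samples were profiled by RNA-seq. Per the labels, the authors aligned reads with TopHat2 2.0.8b to mm9 and made the table with USeq 8.6.4, and the study's methods also name featureCounts. The table deposited by the authors holds, for 33495 genes, raw read counts and FPKM per library, which were used, and 20 columns of variance-corrected log2 values, which were not. FPKM as deposited by the authors are relative to gene length and depth and served for levels between genes. The labels give E9.0 for Mesp1Cre hearts, while the protocol names E11.5 alone. They and the study's methods name different library kits. Nothing in the labels says that replicates were separate litters, so p-values measure the spread between these samples.

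Each Cre line was fitted on its own libraries with edgeR 4.0.16 in R 4.3.3 (TMM scaling, filterByExpr, quasi-likelihood test). With the same settings, both comparisons of controls came from 1 fit of the control libraries of all 3 lines, so their SE and adjusted p-values rest on all of these. Adjusted p-values are Benjamini-Hochberg over all genes tested, with a threshold of 0.05. The 5 genes, the gene lists and the tests were chosen with earlier results of these data known. Named were all 5 genes and, from each list, up to 3 with the largest rise and 3 with the largest fall past the threshold, the genes most like each member, and genes within 100 kb of Mt1. A gene that this rule names is not reported here. Likeness was Pearson's correlation of log2 CPM (prior count 2) among genes with a mean log2 CPM of at least 1. Alternatives were DESeq2 1.42.0, its size factors in edgeR, limma 3.58.1 on log2(FPKM + 0.1) and log2(FPKM + 1), all genes with 1 count or more, 1 fit of all 6 groups, a replicate block, each replicate left out, and the condition names for Mef2cAHF::Cre. Scripts were tested on simulated data. Counting error alone is small above 100 reads, and the 0 to 4 reads of Mt3 allow no comparison. Sequences came from mm9 and RefSeq.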

Additional observations from a re-analysis of the deposited data

Results flagged for a closer look

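In groups of 4 libraries, 20 sets of values were examined for 1 library far from the rest by Dixon's criterion at the 95% level, which chance alone meets in about 1 of 20 sets. Mt1 in Mesp1Cre mutant replicate 1 was at 52.9 CPM, with the next mutant at 37.6. Mtf1 in Mesp1Cre mutant replicate 3 was at 23.0 CPM, with the next at 21.1. Slc30a1 in Mesp1Cre mutant replicate 2 was at 28.1 CPM, with the next at 20.8. The summed macrophage markers in Mesp1Cre control replicate 4 were at 16.1 CPM, with the next control at 8.04.

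The change in Mesp1Cre differed from that in Mef2cAHF::Cre, with genotypes by the titles, for 6 of the list genes past the threshold in a line (edgeR interaction, as were 11.3% of all genes). These genes were taken because they had passed in Mesp1Cre, which favours a difference between the lines. The share of all genes is thus not a matched background, and nothing is read from the count. The difference of the log2 fold changes was 4.45 for Ndrg1 (SE 0.85, adjusted p = 0.00200), 1.44 for Atp7b (SE 0.37, adjusted p = 0.0154), 1.29 for Sgk1 (SE 0.23, adjusted p = 9.96e-04), 0.90 for Errfi1 (SE 0.19, adjusted p = 0.00389), 0.51 for Slc30a9 (SE 0.13, adjusted p = 0.0151) and -0.62 for Csrp1 (SE 0.19, adjusted p = 0.0454). Errfi1, which encodes an inhibitor of EGF receptor signaling, is the remaining glucocorticoid-responsive gene that rose in Mesp1Cre. By the condition names none of these 6 differences passed the threshold (0 of 6 by edgeR, as did 1.63% of all genes). Between Mesp1Cre and Tnnt2::Cre none of these 6 differences passed either, and the Ndrg1 difference was 2.73 (adjusted p = 0.0758, edgeR). The 6 differences thus passed only against Mef2cAHF::Cre and only by the titles.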

How the results depend on the processing

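The Mesp1Cre values of Mt1 and Mt2, on which the genes were chosen, are given as a range only. Over the alternatives the log2 fold change of Mt1 lay between 2.97 and 3.15, and between 2.82 and 3.06 without 1 library, and that of Mt2 between 2.16 and 2.32, and between 2.07 and 2.50. With 1 fit of all 6 groups Mtf1 joined them in Mesp1Cre, for 3 members past the threshold. Over the alternatives the log2 fold change of Mtf1 there lay between -0.31 and -0.10, so it also shrank. Zinc transporters past the threshold in Mesp1Cre numbered 1 with a replicate block and 1 to 3 without 1 library. In Mef2cAHF::Cre the number was 1 with all genes of at least 1 count (Slc30a10). In Tnnt2::Cre, leaving out 1 library gave 0 to 1 members and 0 to 3 zinc transporters, the higher value in each case without mutant replicate 1. The cause was not tested. The near-zero value of Mtf1 between E11.5 and E9.0 controls changed sign, to -0.0137 with DESeq2 size factors, -0.0113 with DESeq2, -0.0559 and -0.0435 on log2(FPKM + 0.1) and log2(FPKM + 1), and to between -0.0234 and 0.0354 without 1 library. Between the E11.5 controls it became 0.101 and 0.0800 on these FPKM scales, 0.0443 by the condition names, and -0.160 to 0.0192 without 1 library. All genes past the threshold numbered 50 in Tnnt2::Cre (19 to 366, and 4 to 896 without 1 library), 482 in Mef2cAHF::Cre (129 to 1311, and 75 to 662) and 1821 in Mesp1Cre (1384 to 3593, and 1052 to 2161). The FPKM scale with 0.1 added moved the median of all genes by -0.13 for Mef2cAHF::Cre, 0.11 for Tnnt2::Cre and 0.15 for Mesp1Cre. Replicate numbers did not pair the samples (correlations of same-numbered libraries from -0.106 to 0.231, with 4 of the 10 mutants closest to their own number), and with the replicate block 2 members were past the threshold in Mesp1Cre while Slc30a9 (adjusted p = 0.0660, edgeR), Csrp1 and Per1 were not. Depth limits Mt3 and Mt4, and 3 or 4 libraries a group limit the rest.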
